A study of Mus musculus with 2 samples.

Results

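The unfolded protein response and the integrated stress response were followed through 10 genes, Ern1, Atf6, Xbp1, Atf4, Ddit3, Ppp1r15a, Trib3, Herpud1, Edem1 and Sdf2l1, chosen by gene symbol from 55536 mouse genes in the deposited gene tables. Each symbol was matched to its Ensembl gene identifier, and all 10 were found. The symbol Ddit3 also belonged to a second identifier, ENSMUSG00000116429.1, with 1 short transcript at chr10:127290829-127293753 (mm10, plus strand) inside the main gene. It was listed at 0 counts in both libraries and was left out.

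The material was macrophages grown from the bone marrow of C57BL/6J mice and exposed for 120 minutes to lipid A at 100 ng/ml, and polyadenylated RNA was read by sequencing. Lipid A is the part of bacterial lipopolysaccharide that Tlr4 senses, but the labels disagree, since other fields name lipoprotein A, a protein. The 2 libraries form 1 group, numbered as biological replicates 1 and 2 under the same donor record, with the sex and age of the mice not collected. No unstimulated library was analysed here, so no value below is a response to the stimulus, and the spread between these samples may be technical.

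The unfolded protein response begins at the membrane of the endoplasmic reticulum (ER), where the sensors Ern1 (IRE1 alpha), Atf6 and Eif2ak3 (PERK) detect an excess of unfolded protein. Ern1 cuts a short stretch out of the Xbp1 mRNA so that its reading frame shifts to encode an active transcription factor, Atf6 is cut in the Golgi to release a transcription factor, and PERK phosphorylates the translation factor eIF2 alpha. Phosphorylated eIF2 alpha, the point where several stress kinases meet in the integrated stress response, lowers general translation while translation of Atf4 increases, and macrophages are known to engage the Ern1 and Xbp1 arm downstream of Toll-like receptors.

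The site that Ern1 cuts carries the molecular switch of the pathway, so it is shown here with the removed bases in capitals. It lies at chr11:5524252-5524331 (mm10, plus strand) in coding sequence of exon 4 of the 5 exons of Xbp1-201, and the removed bases are chr11:5524279-5524304. The sequence is that of the GENCODE M21 transcript, followed by the same site with the stretch taken out in silico.
Xbp1 site, stretch kept: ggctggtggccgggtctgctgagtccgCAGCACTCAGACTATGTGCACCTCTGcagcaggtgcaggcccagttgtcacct
Xbp1 site, stretch removed: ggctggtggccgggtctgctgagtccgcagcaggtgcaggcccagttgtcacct
The removed stretch is 26 bases long, or 1.22% of the length of Xbp1-201. The loop letters CNGCAGC that Ern1 reads occur at 3 places in this transcript, and 1 pair of them is 26 bases apart. With the stretch kept the reading frame runs for 267 codons before a stop, and with it removed for 371.

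**Figure D1:**
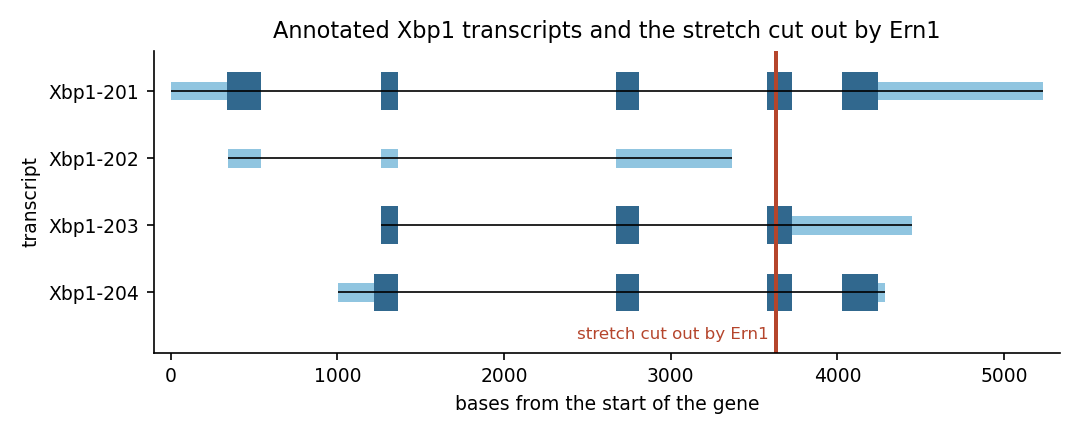
Map of the 4 annotated Xbp1 transcripts against distance in bases from the start of the gene, with dark boxes for coding sequence, pale boxes for other exon sequence and lines for introns. The stretch that Ern1 cuts out, 26 bases, crosses an exon in 3 transcripts and lies beyond the end of Xbp1-202.

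Total estimated counts were 33319563 in replicate 1 and 50334059 in replicate 2, and 3 counts, up to which a gene may hide at a count of 0, equal 0.0902 and 0.0597 CPM (counts scaled by library size), with no other error than counting included. A second transcript table holds another quantification of each library, which is set beside the first for some values. Values are from the first unless the second is named. All 8 macrophage markers were at 1 TPM (a level scaled to transcript length and library size) or more in both libraries, and their summed TPM was 20044 in replicate 1 and 26035 in replicate 2, led by Lyz2. Markers of other cells moved with the library. The 8 neutrophil markers summed to 517 TPM in replicate 1 and 67.2 TPM in replicate 2, led by S100a9, with 4 of 8 at 1 TPM or more in both and Ly6g at 4 and 0 counts. The 5 platelet markers summed to 933 and 238 TPM, nearly all of it Pf4 at 915.51 and 235.91 TPM, with 2 of 5 at 1 TPM or more in both. Of the others, Ppbp stood at 13.91 and 1.55 TPM and Itga2b at 2.25 and 0.36 TPM. Gp9 and Gp1bb were under 1 TPM in both libraries. T cell (0 of 5), fibroblast (0 of 5) and erythroid (0 of 4) markers were all under 1 TPM in both libraries, with sums of at most 1.23 TPM in replicate 1 and 0.72 TPM in replicate 2, and Cd8a, Trac, Hbb-bs and Alas2 had no counts. Of 7 B and plasma cell markers 2 passed, Sdc1 and Cd79b, with a sum of 7.46 and 5.44 TPM, and Mzb1, a marker of cells with an expanded secretory ER, had no counts. Which cells the RNA of the neutrophil and platelet markers came from was not tested, nor was the part of such cells in the values below. In bulk RNA fewer cells of a type and less RNA per cell cannot be told apart.

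Of the 10 stress response genes, 9 reached 1 TPM in both libraries, a level reached by 18.5% of all mouse genes, and the same 9 were also at 10 TPM or more. Their levels ran from 0.525 TPM for Trib3 to 256.9 TPM for Ppp1r15a, 489-fold apart, with a median over all 10 of 56.4 TPM. The median over the 10285 genes at 1 TPM or more in both libraries was 14.1 TPM.

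Both sensor genes were expressed at moderate levels, Atf6 above Ern1. Ern1, the kinase and RNase that cuts Xbp1 mRNA, lies on chromosome 11 at 106394650 to 106487852 (mm10, minus strand) and stood at 18.6 TPM in replicate 1 and 15.66 TPM in replicate 2, from 2610 and 3152 counts. Its mean of 17.1 ± 2.08 TPM (SD, n = 2) was above that of 54.5% of expressed genes. Atf6, whose cytosolic part becomes a transcription factor after cleavage, lies on chromosome 1 at 170704674 to 170867771 (minus strand) and stood at 30.13 and 32.78 TPM, from 4730 and 7582 counts, with a mean of 31.5 ± 1.87 TPM (SD, n = 2). The ranges of these genes did not overlap, and the TPM of Atf6 over that of Ern1 was 1.62 in replicate 1 and 2.09 in replicate 2. The third sensor gene, Eif2ak3, which encodes PERK, was far below both at 1.17 and 2.12 TPM, 0.0629 and 0.135 of the TPM of Ern1. The Atf6 paralog Atf6b, at 42.94 and 43.43 TPM, was above Atf6 in both libraries, with Atf6 over Atf6b at 0.702 and 0.755 in the first quantification and at 0.933 and 0.982 in the second.

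The transcription factor genes of the response were all well above the median of expressed genes. Xbp1, the target of the Ern1 RNase, lies on chromosome 11 at 5520659 to 5525893 (plus strand) and stood at 86.64 TPM in replicate 1 and 71.32 TPM in replicate 2, from 3551 and 4265 counts. Its mean was 79.0 ± 10.8 TPM (SD, n = 2), above 85.0% of expressed genes. Atf4, the factor whose translation increases when eIF2 alpha is phosphorylated, lies on chromosome 15 at 80255184 to 80257541 (plus strand) and stood at 60.3 and 53.96 TPM, from 1973 and 2593 counts, with a mean of 57.1 ± 4.48 TPM (SD, n = 2). Both genes were somewhat higher in replicate 1 on this scale. Ddit3, which encodes CHOP, a factor tied to cell death under lasting stress, went the other way. It lies on chromosome 10 at 127290774 to 127296288 (plus strand) and stood at 55.19 TPM in replicate 1 and 75.72 TPM in replicate 2, from 724 and 1438 counts, with a mean of 65.5 ± 14.5 TPM (SD, n = 2). The order of Ddit3 and Atf4 therefore differed between the libraries, with a TPM ratio of Ddit3 over Atf4 of 0.915 in replicate 1 and 1.40 in replicate 2.

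The feedback regulators were the most and the least abundant of the 10 genes. Ppp1r15a (GADD34), which brings protein phosphatase to eIF2 alpha and so restores translation, lies on chromosome 7 at 45522916 to 45526268 (minus strand) and stood at 256.04 TPM in replicate 1 and 257.69 TPM in replicate 2, from 11108 and 16011 counts. Its mean of 256.9 ± 1.17 TPM (SD, n = 2) was above 94.5% of expressed genes. On the TPM scale of the first quantification, the library values differed by less for Ppp1r15a than for any other of the 9 expressed genes, relative to the level. This did not hold in the second, where Ppp1r15a stood at 219.1 and 194.1 TPM and Atf6 at 26.58 and 26.74 TPM. Ppp1r15b, the constitutive partner of the same phosphatase, stood at 99.46 and 123.92 TPM, so Ppp1r15a over Ppp1r15b was 2.57 in replicate 1 and 2.08 in replicate 2. Trib3, a pseudokinase gene that Atf4 and CHOP activate and that restrains both, lies on chromosome 2 at 152337422 to 152344032 (minus strand) and stood at 0.46 and 0.59 TPM, from 18 and 30 counts. Its deposited interval on the posterior mean TPM ran from 0.361 to 1.32 in replicate 1 and from 0.464 to 1.42 TPM in replicate 2. The probability that this interval covers is not stated. The abundance of Trib3 was therefore low and imprecise at these depths.

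The genes of ER quality control differed among themselves. Edem1, which helps misfolded glycoproteins out of the folding cycle towards degradation, lies on chromosome 6 at 108828641 to 108859356 (plus strand) and stood at 65.62 TPM in replicate 1 and 73.05 TPM in replicate 2, from 7887 and 13044 counts, with a mean of 69.3 ± 5.25 TPM (SD, n = 2). It was above its paralogs in both libraries, with Edem1 over Edem2 at 1.65 and 2.07 and Edem1 over Edem3 at 6.45 and 7.33. Sdf2l1, a small ER protein that works with the chaperone BiP, lies on chromosome 16 at 17130138 to 17132383 (minus strand) and stood at 58.91 and 52.42 TPM, from 1096 and 1434 counts, with a mean of 55.7 ± 4.59 TPM (SD, n = 2). Its paralog Sdf2 was at a like level, 57.32 and 62.68 TPM, and Sdf2l1 over Sdf2 was 1.03 and 0.836 in the first quantification and 0.998 and 0.802 in the second. Herpud1, an ER membrane protein that organises the degradation complex, lies on chromosome 8 at 94386438 to 94395377 (plus strand) and was the lowest of the 9 expressed genes, at 12.41 and 15.34 TPM, from 465 and 843 counts. Its mean of 13.9 ± 2.07 TPM (SD, n = 2) was above 49.5% of expressed genes, and Herpud1 over its paralog Herpud2 was 0.524 and 0.482.

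**Figure D2:**
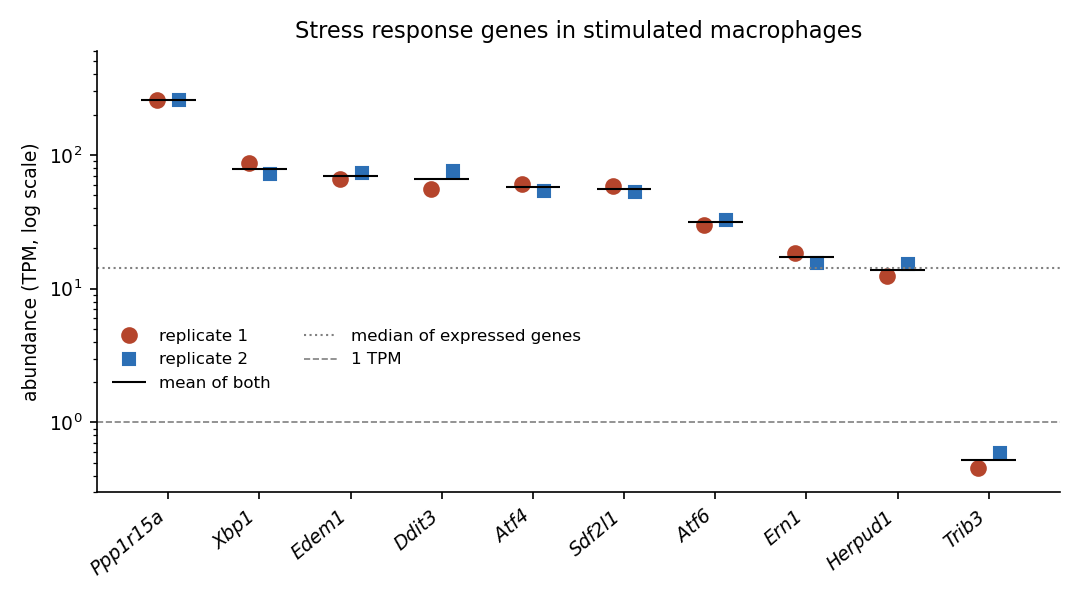
Abundance of the 10 stress response genes in TPM on a log axis, with circles for replicate 1, squares for replicate 2, short lines for their mean, a dotted line for the median of expressed genes and a dashed line at 1 TPM. Ppp1r15a stands alone at the top near 256.9 TPM, each gene from Xbp1 to Sdf2l1 overlaps the next, and Trib3 is the one gene under 1 TPM.

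Ordered by mean TPM, the genes ran Ppp1r15a, Xbp1, Edem1, Ddit3, Atf4, Sdf2l1, Atf6, Ern1, Herpud1 and Trib3. From Xbp1 through Edem1, Ddit3 and Atf4 to Sdf2l1 the values of each gene overlapped with those of the next, so neighbours in this stretch were not separated beyond their spread. Further apart in the order, Xbp1 and Edem1 were each above Atf4 and Sdf2l1 without overlap. Ppp1r15a was above all of them without overlap, and Atf6, Ern1, Herpud1 and Trib3 each lay below the gene before it without overlap. The gap between Ern1 and Herpud1 was narrow, with the lower value of Ern1 at 15.66 TPM in replicate 2 and the higher value of Herpud1 at 15.34 TPM in the same library.

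The libraries were compared by the log2 ratio of CPM, replicate 1 over replicate 2, after TMM scaling (trimmed mean of M-values), for the 9 genes whose mean count was at least 50. None of the 9 lay 1.5-fold or more apart, against 14.6% of the 10445 genes measured in this way, 7.14% being higher and 7.46% lower in replicate 1. That share depended on the mean count and was 36.1% for counts of 50 to 100. In the classes of mean count that hold the 9 genes it ran from 7.71% to 12.1%. The 0 of 9 is therefore not read as a result about these genes. Relative to total counts alone, 1306 of these genes would be higher and 427 lower by that fold, against 746 and 779 with TMM scaling, and the median over all genes would be 0.14, against -0.03 with TMM scaling. On the scale of log2(TPM + 1) 778 would be higher and 369 lower. With 1 library on each side no p-value was given, and a difference of this kind is one between libraries of the same treatment.

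Xbp1, Ern1, Sdf2l1 and Atf4 were higher in replicate 1, at log2 ratios of 0.16, 0.16, 0.04 and 0.03, and Ddit3, Herpud1, Edem1, Atf6 and Ppp1r15a were lower, at -0.56, -0.43, -0.30, -0.25 and -0.10. The sign was the same under every scaling tried for 8 of them and changed for Ppp1r15a, which was at 0.07 with total counts alone. The median absolute log2 ratio was 0.16 over the 9 genes and 0.24 over all genes measured. Counting intervals at 95%, which cover counting error only, left out 0 for 7 of 9 genes, all but Atf4 and Sdf2l1. Ddit3 was furthest apart and close to the limit, with an interval from -0.69 to -0.43 against the 1.5-fold line at 0.58 on either side, and in the second quantification it passed that line at -0.59. Of all genes measured, 15.9% lay further apart than Ddit3. Among the 1725 genes with mean counts between 800 and 1600, its own class, the central 90% of log2 ratios ran from -0.61 to 0.44, and Ddit3 was inside it. The other 8 genes were also inside the central 90% of their classes.

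**Figure D3:**
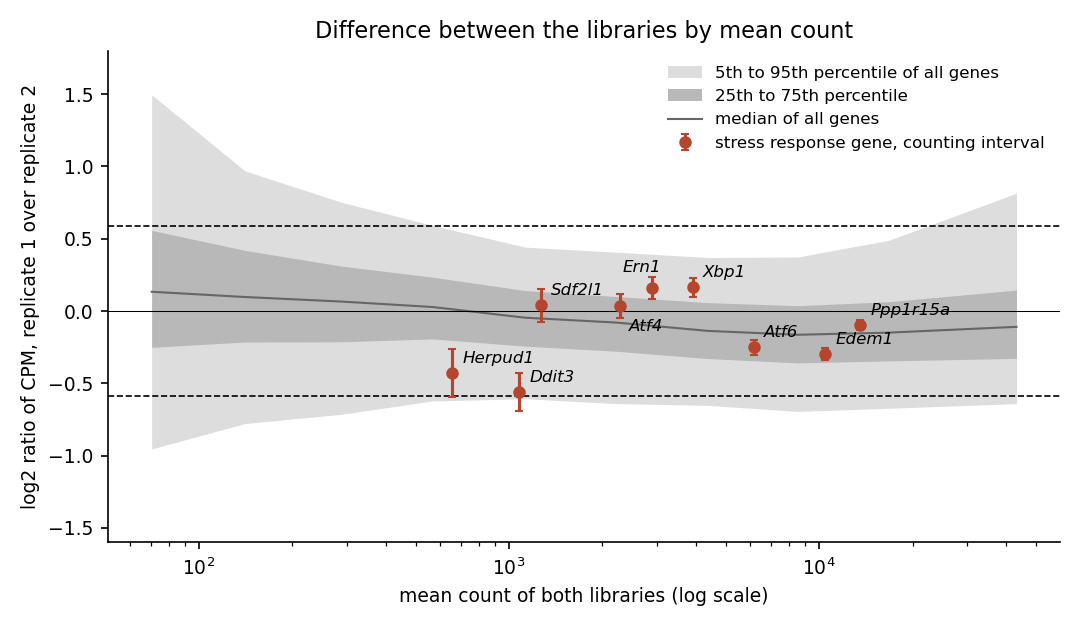
Log2 ratio of TMM-scaled CPM, replicate 1 over replicate 2, against mean count on a log axis for 9 stress response genes (points with 95% counting intervals), over the central 50% and 90% of all genes by class of mean count. Dashed lines mark 1.5-fold, all 9 points lie between them, and Ddit3 at -0.56 is the nearest to one.

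Most of each gene's RNA was assigned to 1 coding transcript. The 10 genes have 35 annotated transcripts, of which 21 are coding and 8 retain an intron, and 6 were listed at 0 in both libraries. The leading transcript was coding in all 10 genes and held over 90% of the gene's TPM on average in 7 of them, with a median of 92.4% and a lowest value of 88.0% for Herpud1-205. The second quantification, made from read files and an index, had the same leading transcript in all 10. Its lowest shares were 79.1% for Edem1-201 and 81.5% for Trib3-201, which were 92.7% and 92.0% in the first. The share of Trib3-201 rests on 18 and 30 counts of the gene, and by posterior mean it was 56.9% and 52.1%.

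For Xbp1 the leading transcript was Xbp1-201, with 97.37% of the gene's TPM in replicate 1 and 95.99% in replicate 2, or 96.7% ± 0.976 (SD, n = 2). Xbp1-202, which keeps an intron and ends before the Ern1 site, held 0.86% and 1.75%, Xbp1-203 held 1.24% and 1.26%, and Xbp1-204 held 0.53% and 1.0%. The second quantification gave 96.4% and 94.4% for Xbp1-201 and 1.41% and 3.23% for Xbp1-202, so Xbp1-202 took the larger share in replicate 2 in both tables. None of these numbers is the share of mRNA that Ern1 had cut. The 3 annotated transcripts other than Xbp1-202 all hold the 26 bases, printed above in capitals, and 0 of the 4 carry the joined form, so the tables do not separate spliced from unspliced Xbp1 mRNA, and how reads across the joint were assigned was not tested. Transcripts with the stretch made up 99.14% of Xbp1 TPM in replicate 1 and 98.25% in replicate 2.

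Minor transcripts of the other genes were few and some depended on the quantification. Ddit3-203, a shorter coding form, held 9.03% of Ddit3 TPM in replicate 1 and 11.89% in replicate 2, with 9.49% and 12.5% in the second quantification. Herpud1-201 held 9.24% and 14.65% of Herpud1 TPM, with 9.02% and 14.3% in the second. Ern1-204, which has 408 codons against 977 in Ern1-201, held 6.77% and 9.72% of Ern1 TPM. Each of these 3 minor forms took a larger share in replicate 2 in both tables. Edem1-202, a short form with a retained intron, held 3.61% and 1.99% in the first quantification but 11.7% and 11.3% in the second. Ppp1r15a-203 held 6.91% and 9.59% of Ppp1r15a TPM from 49.3 and 103 counts in the first, and was listed at 0 in the second. Its 389 bases make each count weigh more in TPM, so the share by count was 0.444% and 0.643%. Atf4-203, which keeps an intron, held 2.93% and 1.87% of Atf4 TPM. Atf6-201 held 99.9% of Atf6 TPM in both libraries, and Sdf2l1 has a single annotated transcript.

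**Figure D4:**
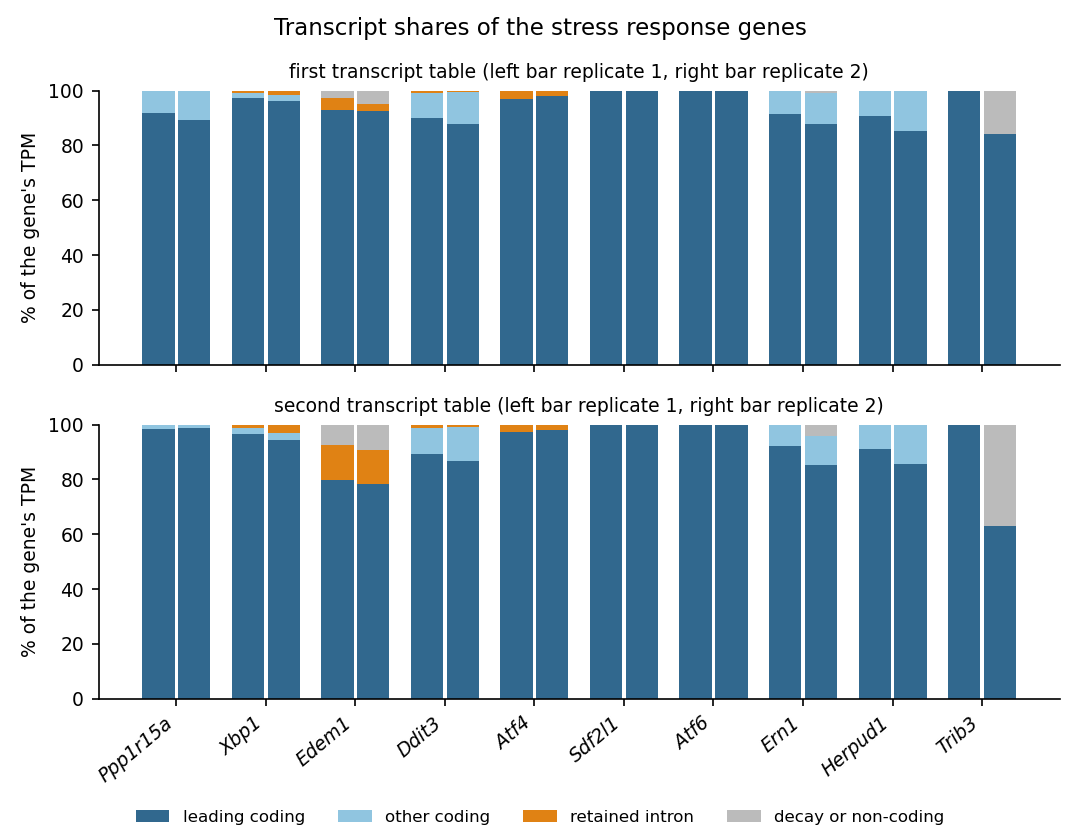
Percent of each gene's TPM in its leading coding transcript, other coding transcripts, transcripts with a retained intron and other transcripts, in the first transcript table above and the second below, with the left bar for replicate 1 and the right bar for replicate 2. The leading transcript holds most of every bar, and the tables differ most for Edem1 and, at 30 counts or fewer, for Trib3.

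Reads that could belong to another gene were checked for each member by its 31-base words. Of the 1711 words of Ddit3, 116 (6.78%) were also in transcripts of 11 other genes, 75 of them in the second Ddit3 identifier at 0 counts. Sdf2l1 shared 0.649% of its words, Atf6 and Edem1 under 0.05%, and the other 6 genes shared none. Ddit3 overlaps Mars, a tRNA synthetase gene on the opposite strand, by 68 bases, with 634 and 842 counts assigned to Mars. Ppp1r15a overlaps Tulp2 by 717 bases on the opposite strand, with 0 and 4 counts assigned to Tulp2. Words were compared on both strands, and Ppp1r15a shared none, so its transcripts hold no 31-base word in common with those of Tulp2. Whether strand was used in counting was not given in the sources used here. Reads from the overlap of Ddit3 and Mars therefore cannot be told apart.

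The leading transcripts also differed before their start codons, where open reading frames are known to govern translation of Atf4, Ddit3 and Ppp1r15a under stress. In the annotation, 5 of the 10 leading transcripts had an ATG upstream of the coding start, which is also the case for 47.7% of the leading transcripts of 9010 expressed coding genes. Atf4-201 had 3 within 594 bases, 1 of which opens a frame that runs past the Atf4 start codon in another frame. Ppp1r15a-201 had 3 within 283 bases, Ddit3-201 had 2 within 186 bases and Xbp1-201 had 1 within 336 bases. Edem1-201 had 1 within 66 bases, and it too opens a frame that overlaps the coding start. Such an overlap was present in 2 of 10 genes and in 15.4% of the expressed coding genes. These are features of the sequence, and translation was not measured in these files.

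Promoters were searched for the letters that the factors of the response bind, in 250 bases before to 50 bases after the RefSeq start (GRCm38.p6), on both strands, for the 9 genes in the table. The table held 32851 promoters. Herpud1 was the one gene of the 9 with the ER stress response element II, ATTGG and CCACG separated by 1 base, which occurred in 12 promoters (0.0365%). Ppp1r15a was the one gene with the cyclic AMP response element TGACGTCA, which reads the same on both strands and occurred in 1.79% of promoters. The first 8 letters of the composite element of C/EBP and ATF factors, TGATGCAA, occurred on the opposite strand in Herpud1 and in 0.895% of promoters, a search added after the data were seen. The classic ER stress response element, which joins CCAAT and CCACG over a fixed spacing, was in 0 of 9 genes and 0.119% of promoters, TGACGTGG in 0 of 9 and 0.676%, and TGATGNAAT in 0 of 9 and 0.965%. The letters CCAAT alone were in 5 of 9 genes and 37.4% of promoters, and CCACG in 6 of 9 and 32.8%, and both can be part of the longer elements. The median GC content was 60.7% over the 9 genes and 52.7% over all promoters. The 150 bases before the start are shown for the 2 genes with the ER stress response element II or TGACGTCA, with those letters, and in Herpud1 also the 8 letters of the composite element, in capitals, Ppp1r15a from chr7:45526269-45526418 (mm10, minus strand) and Herpud1 from chr8:94386279-94386428 (mm10, plus strand).
Ppp1r15a promoter: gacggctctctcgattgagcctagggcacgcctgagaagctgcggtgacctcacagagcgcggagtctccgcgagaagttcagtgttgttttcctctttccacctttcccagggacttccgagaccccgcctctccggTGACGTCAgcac
Herpud1 promoter: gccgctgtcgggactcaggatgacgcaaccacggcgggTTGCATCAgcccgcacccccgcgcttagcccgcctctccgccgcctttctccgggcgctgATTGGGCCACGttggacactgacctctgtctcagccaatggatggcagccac
In Ppp1r15a the element begins 12 bases before the start. In Herpud1 the ER stress response element II begins 52 bases before it, and the 8 letters of the composite element begin 112 bases before it. A match of letters is a description and not a bound site. The levels of these 2 genes were 256.9 TPM for Ppp1r15a and 13.9 TPM for Herpud1. With 1 gene for each element, a link between element and level was not tested.

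The other genes of the pathway, 126 genes in 8 lists, were mostly expressed. At 1 TPM or more in both libraries were 112 of them, against 18.5% of all mouse genes, with a median of 32.3 TPM over all 126. A mean count of at least 50 was reached by 112, of which 5 (4.46%) lay 1.5-fold or more apart, against 14.6% of all genes measured. Higher in replicate 1 were 2, Eif2b3 at a log2 ratio of 0.71 and Creb3l1 at 0.66, and lower were 3, Ddit4 at -1.32, Eif2ak3 at -1.02 and Bbc3 at -0.67, against 7.14% and 7.46% of all genes in those directions. At a mean count of at least 200, 2 of 104 pathway genes lay that far apart, against 10.7% of all genes. The share apart depended on the mean count, which was not matched here. The 5 of 112 is therefore not read as a result about these genes. Bbc3, a cell death gene, was named after its value was seen.

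Of the stress sensors and eIF2 kinases 7 of 8 passed that level, and their median was 15.9 TPM. At the top was Eif2ak2 (PKR), the kinase that senses double-stranded RNA, at 52.05 TPM in replicate 1 and 58.97 TPM in replicate 2, and Eif2ak1, the heme-regulated kinase, stood at 15.41 and 19.15 TPM. Ern2, the paralog of Ern1 known from mucosal epithelium, was listed at 0 in both and was named after its value was seen. Eif2ak3 was the least abundant of the kinases that were above 1 TPM. The machinery that joins cut Xbp1 mRNA and the mRNAs that Ern1 is known to degrade passed for 7 of 11 genes, and the median was 27.3 TPM. Rtcb, the RNA ligase that joins the Xbp1 ends, stood at 66.22 and 50.93 TPM, and its complex partner Rtraf at 94.73 and 101.89 TPM. Bloc1s1, the best known of the degraded mRNAs, stood at 101.7 and 84.36 TPM, and Hgsnat, another, at 27.63 and 26.9 TPM. The degraded mRNAs of Scara3, Sparc, Pdgfrb and Col6a1 were under 1 TPM in both libraries, and the ligation genes all passed. Hgsnat and the genes under 1 TPM were named after their values were seen.

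ER chaperones and folding enzymes were the most abundant list, with 20 of 20 passing and a median of 101 TPM. Calr, the lectin chaperone calreticulin, stood at 1032.69 TPM in replicate 1 and 697.19 TPM in replicate 2, the furthest apart of the list at a log2 ratio of 0.42. Hspa5, which encodes BiP, stood at 676.21 and 652.41 TPM, and Hsp90b1 at 332.17 and 276.02 TPM. Hspa5 was 11.5 and 12.4 times the TPM of its partner Sdf2l1. Translocon and secretory genes that Xbp1 is known to activate passed for 20 of 20 genes, with the median at 62.9 TPM and at the top the signal peptidase gene Spcs1 at 250.53 and 241.68 TPM. The oligosaccharyltransferase gene Rpn2 stood at 167.82 and 141.77 TPM, the translocon-associated gene Ssr4 at 143.18 and 129.35 TPM, and the vesicle coat gene Sec23b was furthest apart at -0.32. Genes of ER-associated degradation passed for 14 of 15 genes, and their median was 39.1 TPM. Vcp, the ATPase that pulls proteins out of the ER, led at 195.02 and 166.89 TPM, followed by the lectin gene Os9 at 141.72 and 146.95 TPM and the adaptor gene Sel1l at 74.69 and 75.28 TPM, and Herpud2 was furthest apart at 23.67 and 31.84 TPM.

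Of the targets of Atf4 and Ddit3 26 of 32 passed, and their median was 6.06 TPM. Atf3, a stress-induced factor that inflammatory stimuli also induce, led at 459.24 TPM in replicate 1 and 473.27 TPM in replicate 2. The amino acid transporter subunit gene Slc3a2 stood at 415.44 and 471.88 TPM, and Nupr1, a stress-induced chromatin protein gene, at 259.44 and 244.29 TPM. Above the median of expressed genes, 14.1 TPM, were 11 of the 32, these 3 among them, and the other 21 were below it. The asparagine synthetase gene Asns stood at 4.46 and 3.08 TPM, Chac1 had 0 counts in both libraries, and Ddit4, an inhibitor of the growth kinase mTOR, stood at 2.62 and 6.0 TPM. Asns and Chac1 were named after their values were seen. Partners of Ppp1r15a and the subunits of eIF2 and eIF2B passed for 12 of 12 genes, with the median at 33.7 TPM and at the top the phosphatase gene Ppp1ca at 319.33 and 262.43 TPM. Its paralog Ppp1cc stood at 116.2 and 152.05 TPM, and Eif2b3 at 7.06 and 3.96 TPM. Other ER membrane and partner factors passed for 7 of 9 genes, with the median at 9.08 TPM and at the top Nfe2l1 at 109.76 and 105.44 TPM. The CCAAT-binding subunit gene Nfya stood at 52.33 and 55.36 TPM, the ER membrane factor gene Creb3 at 35.16 and 29.85 TPM, and Creb3l1 at 2.87 and 1.66 TPM.

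**Figure D5:**
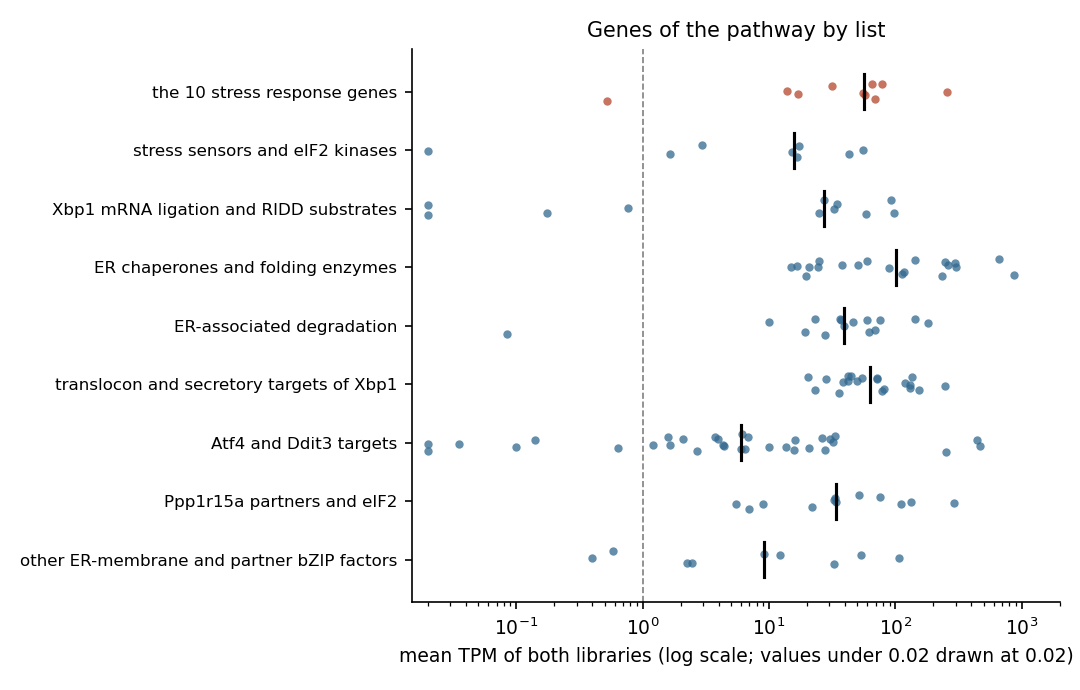
Mean TPM of both libraries on a log axis for the 10 stress response genes and for 8 lists of other pathway genes, 1 point a gene, with a black line at each median and a dashed line at 1 TPM. Chaperones have the highest median, 101 TPM, and targets of Atf4 and Ddit3 the lowest, 6.06 TPM, with Atf3, Slc3a2 and Nupr1 far above the rest of that list.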

How the data were processed

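Levels were read from the tables deposited for each library. As the file headers name them, the deposited gene table and first transcript table give expected counts (estimated reads), TPM, a posterior mean TPM with an interval, and for each transcript its percent of the TPM of its gene, with RSEM's column names. A further deposited transcript table gives estimated counts and TPM with kallisto's column names. The deposited descriptions state a transcriptome alignment for the first 2 tables, assembly mm10 and GENCODE M21. Program versions and any use of strand are not given in the sources used here.

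Expected counts were rounded to whole numbers. Entries that name no mouse gene, 0.141% and 0.134% of counts, were left out of library sizes. CPM used TMM factors from edgeR 4.0.16 (R 4.3.3), and ratios were taken at a mean count of 50 or more. A coefficient of variation of 21.5% between the libraries over 12178 genes came from edgeR's common dispersion with an intercept alone, and a chi-square of 120.8 per degree of freedom was above sampling noise. On simulated counts for this comparison, 199 of 200 genes changed 4-fold were recovered over 10431 genes, while 19.8% of unchanged ones passed 1.5-fold. Recovery meant passing the 1.5-fold line, and every gene was given the same spread, so the simulation does not test calls near that line. The 19.8% was above the 14.6% of measured genes that lay this far apart, so the simulated spread did not match that of the data. Ero1a and Ero1b were found under Ero1l and Ero1lb. Transcript sequences were those of GENCODE M21 and promoters those of RefSeq (GRCm38.p6), where Atf6 was not matched. Python 3.11.15, numpy 2.4.6, pandas 2.3.3 and matplotlib 3.10.9 were used.

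The members and lists were chosen with earlier results of these data known. Named were the 10 members and, from every list, the 3 highest by mean TPM and the gene furthest apart, with paralogs of members and genes said to be named after their values were seen. Alternatives were DESeq2 1.42.0 size factors, other minimums, scales and folds, posterior means, the second quantification and each replicate alone. With 1 group in the labels there were no conditions to compare.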

Additional observations from a re-analysis of the deposited data

How the results depend on the processing

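No paired analysis was possible because the labels give 1 group of 2 libraries. The count of stress response genes at 1 TPM or more in both libraries, 9, was also 9 in the second quantification, with posterior means, at 5 TPM and with each replicate alone, and 10 with any count. The TPM of all 10 was lower in the second quantification, at a median of 0.854 times the first in replicate 1 and 0.784 times in replicate 2. Over genes at 1 TPM or more in both libraries these medians were 0.886 and 0.813. The mean of Ppp1r15a was 206.6 TPM in the second, against 256.9 TPM. The count of pathway genes, 112, ran from 98 at 5 TPM to 121 with any count. None of the stress response genes lay 1.5-fold apart under 8 of 9 alternatives, and 1, Ddit3, did in the second quantification. The settings of 2-fold and of a mean count of 200 used the main ratios and could not have added a gene. With any count in both libraries only Trib3 could have been added. Over all genes the count apart, 1525, was 4497 with any count in both libraries, 894 at a mean count of 200, 486 on the log2(TPM + 5) scale and 417 at 2-fold. Of those called, 48.9% were higher in replicate 1, against 75.4% with total counts alone, 67.8% on log2(TPM + 1), 68.9% on log2(TPM + 0.1) and 59.1% on log2(TPM + 5). The leading share of Xbp1, 96.7%, was 95.4% in the second quantification, 98.7% by counts, and from 95.99% to 97.37% with each replicate alone. The shorter letters TGATGCAA, added after the data were seen, were in 1 promoter of the 9 genes, and TGATGNAAT was in 0. Depth limits Trib3, at 18 and 30 counts, and 2 libraries of 1 group give no p-value.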
